A study of Mus musculus with 8 samples.

Results

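Sfrp1, Sfrp2, Frzb and Dkk3 encode secreted proteins that act on Wnt signalling outside the cell. They were taken here as all probe sets that the array's annotation assigns to these 4 genes, 9 of the 22626 probe sets measured, for 4 of 12393 genes with a probe set of their own. Expression in the left ventricle was measured in total RNA from male MRL/MpJ mice, inbred and studied for its regrowth of punched ear tissue, and from male C57BL/6 mice, a common inbred strain. Animals were 2 to 4 months old. The left anterior descending artery, a coronary branch that feeds this ventricle, was tied off to infarct it (ligation). In each strain 1 array came from hearts on day 3 after ligation, 1 from day 30, 1 from day 60 and 1 from untreated hearts, which are not described as sham operated. Every strain and time thus has 1 array and no replicate, and whether the RNA on it came from 1 mouse or a pool is not given in the sources used here.

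Wnt ligands are secreted glycoproteins that bind Frizzled receptors and Lrp5 or Lrp6 co-receptors and, in the canonical branch, stabilise beta-catenin, which drives target genes with TCF/LEF factors. Sfrp1, Sfrp2 and Frzb carry a cysteine-rich domain like that of Frizzled receptors and can bind Wnt ligands in the extracellular space. Dkk3 is a divergent member of the Dickkopf family, whose other members block Lrp co-receptors, and its role in Wnt signalling is less settled. Fibroblasts and other stromal cells of injured heart are a known source of secreted Frizzled-related proteins, and Sfrp2 has also been reported to act on the procollagen C-proteinase Bmp1.

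Promoter sequences from RefSeq (build GRCm38.p6) matched 2 of the 4 genes, Sfrp2 and Frzb. The 250 bases before the annotated start are shown for these, the gene with the largest change after ligation and the gene with the largest strain difference of the 4. The Sfrp2 window is chr3:83766071-83766320 on the plus strand and the Frzb window is chr2:80447397-80447646 on the minus strand; each is written 5′ to 3′ on its gene's strand, and capitals mark CG dinucleotides.
Sfrp2: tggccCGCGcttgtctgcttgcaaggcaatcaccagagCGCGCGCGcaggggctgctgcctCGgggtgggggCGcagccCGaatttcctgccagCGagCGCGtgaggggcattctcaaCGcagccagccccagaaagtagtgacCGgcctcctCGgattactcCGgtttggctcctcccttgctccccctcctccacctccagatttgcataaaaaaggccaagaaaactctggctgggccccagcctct
Frzb: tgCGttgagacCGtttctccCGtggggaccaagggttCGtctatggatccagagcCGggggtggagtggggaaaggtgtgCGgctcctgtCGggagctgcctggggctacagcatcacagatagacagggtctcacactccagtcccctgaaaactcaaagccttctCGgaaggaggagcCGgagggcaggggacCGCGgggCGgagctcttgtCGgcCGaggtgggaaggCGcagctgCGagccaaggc
Each window holds 16 CG dinucleotides, against a median of 6 in the 32851 promoter windows of the table, 25.4% of which hold at least as many. Bases G and C make up 63.6% of the Sfrp2 window and 64.4% of the Frzb window, against a median of 52.4%. The TCF/LEF motif, searched on both strands as CAAAG after 2 bases that are each A or T, is in 14.8% of all windows, and these letters are in neither window. The AP-1 motif TGANTCA, searched on both strands, is in 6.75% of all windows and in neither of these.

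The arrays were on a common scale, with a trimmed mean signal between 247.2 and 248.4 and a median between 112.8 and 139.5. Across the 8195 genes tested, the 7 pairs of arrays with C57BL/6 day 30 had Pearson r between 0.844 and 0.877, while the other 21 pairs lay between 0.884 and 0.948, so that array stood apart. The summed signal of 14 heart muscle markers was 244097 to 446436 in ligated and 232286 to 260450 in untreated hearts, and all 14 markers passed the filter used here. The highest sum was that of C57BL/6 day 30. The sum includes Nppa, whose log2 change of 2.28 in ligated against untreated hearts was the highest of the list. Over the 14 markers the median log2 change was 0.10, with 9 above 0 and 5 below. The summed signal of 15 fibroblast markers was 44639 to 81281 in ligated hearts and 19868 to 21594 in untreated hearts. In such bulk samples more cells of a type and more RNA per cell cannot be told apart.

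All 9 probe sets passed the filter on low values, which asked for a signal of 121 or more (the median over the whole table) on 2 or more arrays. In 6 of the 9 both untreated signals lay below 121: Sfrp2, both Dkk3 sets, Sfrp1 on 1416594_at and 1460187_at, and Frzb on 1448424_at. These passed through the ligated arrays alone, so the filter itself favours finding them higher after ligation, and counts of sets that were higher are a description. The same holds for each gene of the lists given further on that had both untreated signals below 121.

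Sfrp2, on its 1 probe set, had the widest range of the 4 genes. In MRL/MpJ hearts its signal was 51.3 untreated, 3143 on day 3, 629.7 on day 30 and 2085 on day 60. In C57BL/6 hearts it was 46.8 untreated, 893.6 on day 3, 1708 on day 30 and 2102 on day 60. The lowest ligated array was thus far above the higher untreated one, and the highest was MRL/MpJ on day 3. As approximate ratios of signals, MRL/MpJ stood 61.3-fold above its untreated array on day 3, 12.3-fold on day 30 and 40.6-fold on day 60, and C57BL/6 stood 19.1-fold, 36.5-fold and 44.9-fold above its own. The untreated signals lay below the median of all values and no detection call was used here, so the ratios are uncertain. An offset of 28.6 was added before taking logarithms, which makes the log2 changes given further on smaller than these ratios.

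Dkk3 has a pair of probe sets whose log2 signals ran in parallel (Pearson r 0.98 over the 8 arrays). On the stronger set, 1417312_at, MRL/MpJ hearts had 60.9 untreated, 379.3 on day 3, 504.2 on day 30 and 893.6 on day 60. C57BL/6 hearts had 53.7 untreated, 192.1 on day 3, 568.1 on day 30 and 429.8 on day 60. Every ligated array lay above both untreated arrays, and day 3 was the lowest ligated time in both strains on this set. On the other set, 1448669_at, the ligated arrays lay between 173.3 and 476.9 and the untreated ones were 71.0 and 52.0, and the lowest ligated time in MRL/MpJ was day 30 with 231.7, against 304.3 on day 3.

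Frzb, also called Sfrp3, was measured by 2 probe sets (r 0.95). On 1416658_at, MRL/MpJ hearts had 201.8 untreated, 608.4 on day 3, 412.2 on day 30 and 649.9 on day 60. C57BL/6 hearts had 96.7 untreated, 131.2 on day 3, 261.1 on day 30 and 334.9 on day 60. The ligated and untreated arrays overlapped, because C57BL/6 on day 3 lay below untreated MRL/MpJ. On 1448424_at the C57BL/6 day 3 signal of 28.6 was the lowest of the 8, below its own untreated 57.2, while MRL/MpJ had 361.8 on day 3 and 98.3 untreated.

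Sfrp1 was measured by 4 probe sets that disagreed. The set with the highest mean log2 signal, which stood for the gene in the main test, was 1438620_x_at, and the suffix _x marks a set whose probes can match other transcripts. It gave MRL/MpJ 563.8 untreated, 653.7 on day 3, 575.6 on day 30 and 376.4 on day 60, and C57BL/6 143.1 untreated, 539.6 on day 3, 658.1 on day 30 and 300.8 on day 60. On this set untreated MRL/MpJ lay above 3 of the 6 ligated arrays.

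The other 3 Sfrp1 sets had their lowest signals in the untreated hearts. On 1416594_at MRL/MpJ had 29.2 untreated, 349.5 on day 3, 261.6 on day 30 and 339.6 on day 60, and C57BL/6 had 22.1 untreated, 142.9 on day 3, 122.9 on day 30 and 185.8 on day 60. On 1448395_at the ligated arrays lay between 323.1 and 779.6 and the untreated ones were 156.2 and 164.7. On 1460187_at they lay between 100.9 and 288.7 against 81.9 and 61.8. On these sets every ligated array was above both untreated arrays. Their correlation with one another over the 8 arrays was between 0.68 and 0.91, and with 1438620_x_at between 0.14 and 0.45.

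**Figure D1:**
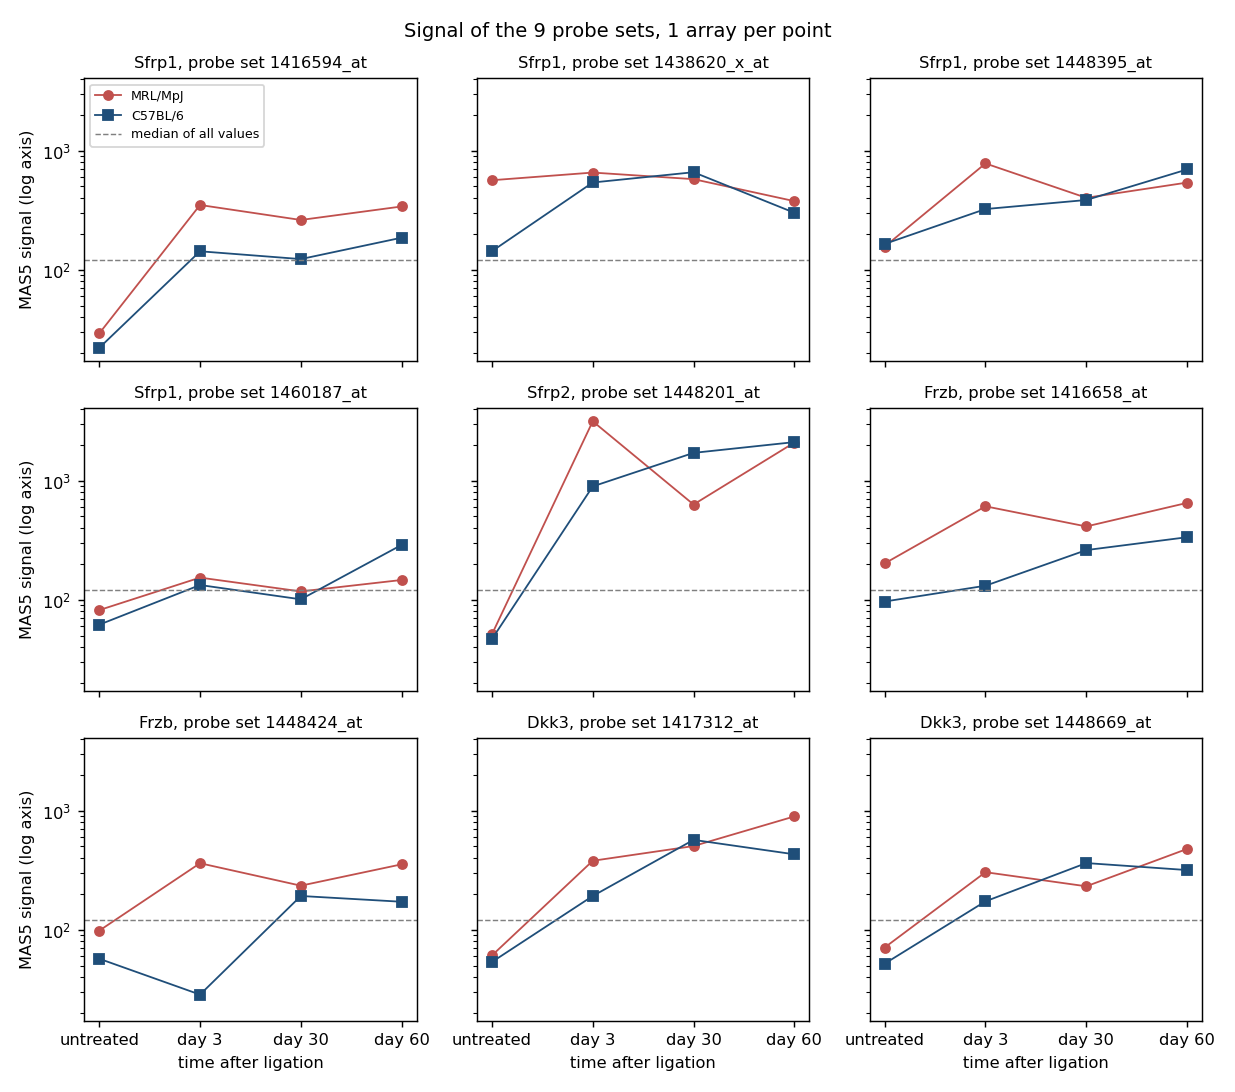
MAS5 signal (log axis) of the 9 probe sets against time after ligation, with MRL/MpJ as circles and C57BL/6 as squares, 1 array per point, evenly spaced times and no error bars because no group has a replicate; the dashed line is the median of all values, 121. Sfrp2 moves over the widest range, between 46.8 and 3143, and the Sfrp1 set 1438620_x_at stands apart from the other Sfrp1 sets in untreated MRL/MpJ.

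The comparison of all ligated hearts with untreated hearts asks which genes differ whatever the time after infarction. Of the 4 genes Sfrp2 and Dkk3 passed the test, both having passed the filter through the ligated arrays alone. Sfrp2 was higher by a log2 of 4.34 (SE 0.50, 95% interval 3.17 to 5.51, 6 arrays against 2), the largest of the 8195 genes tested, and Dkk3 by 2.48 (SE 0.27, interval 1.84 to 3.12). Both had adjusted p = 0.0337 in limma, where 16 genes passed and 15 of these were higher, 0.183% of those tested. Also among the 15 were Serpina3n, the matrix genes Col1a1, Col1a2, Col3a1 and Fn1, and Vim of the intermediate filaments of stromal cells. The collagens and Vim are fibroblast markers listed here. The rest of the 15 were Kcne4, Igkv8-30, Sntb2, Il18bp, Mpp2, Anpep and Pms2. The called gene that was lower was Hspa1b, at a log2 of -2.54. Frzb stood at a log2 of 1.18 (SE 0.29, interval 0.51 to 1.84, adjusted p = 0.179) and Sfrp1 on 1438620_x_at at 0.72 (SE 0.36, interval -0.11 to 1.56, adjusted p = 0.534), and neither passed.

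Both calls rest on few arrays and on the filter: with no filter both had adjusted p = 0.101 in limma, and after quantile normalization 0.0603. They also ended without either untreated array (adjusted p between 0.280 and 0.478), without C57BL/6 day 30 (0.0503), without C57BL/6 day 60 (0.0825) and without MRL/MpJ day 60 (0.108), while the log2 change stayed between 3.97 and 4.71 for Sfrp2 and between 2.25 and 2.71 for Dkk3.

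With every probe set tested on its own, 12183 in all, 14 were higher in ligated hearts, 0.115% of those tested. Of the 9 probe sets here, 3 were among them: Sfrp2, Dkk3 on 1417312_at and Sfrp1 on 1416594_at, which was higher by a log2 of 2.19 (SE 0.24). Each had adjusted p = 0.0396, and each had passed the filter through the ligated arrays alone. Dkk3 on 1448669_at stood at 1.86 (SE 0.28, adjusted p = 0.0663), Sfrp1 on 1448395_at at 1.47 (SE 0.31, adjusted p = 0.139) and Sfrp1 on 1460187_at at 0.83 (SE 0.27, adjusted p = 0.344). All 6 ligated arrays lay above both untreated arrays for 6 of the 9 probe sets, against 6.28% of all probe sets tested. The 3 that overlapped were both Frzb sets and the Sfrp1 set 1438620_x_at. With 1 probe set per gene this held for Sfrp2 and Dkk3, 2 of the 4 genes, against 6.71% of all genes, and 0.195% of all genes passed the test in either direction.

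**Figure D2:**
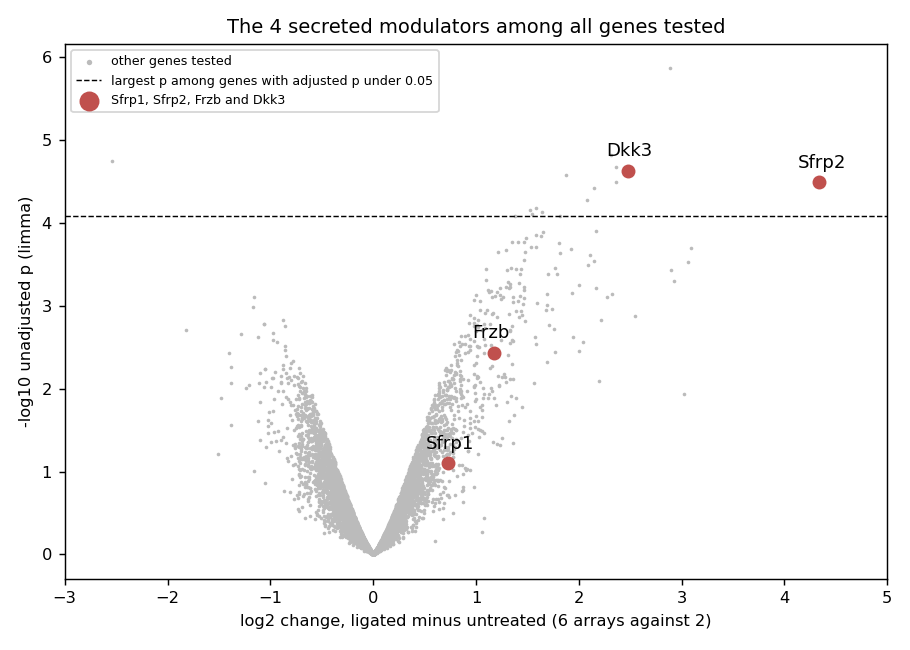
Each point is 1 of the 8195 genes tested, with the log2 change in ligated against untreated hearts on the x axis and -log10 of the unadjusted limma p on the y axis; the dashed line is the largest p among genes with an adjusted p under 0.05. Sfrp2 lies farthest to the right at 4.34, Dkk3 is also above the line, and Frzb and Sfrp1 are below it.

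Taken by day and with 1 probe set per gene, the same 2 genes had the largest changes of the 4, and neither passed on any single day. Sfrp2 stood at a log2 of 4.46 on day 3, 3.78 on day 30 and 4.77 on day 60 (SE 0.62 each, 2 arrays against 2), and had the largest value of all genes tested on each day. Its adjusted p was 0.0749, 0.131 and 0.0614 in limma. Dkk3 stood at 1.81, 2.72 and 2.92 (SE 0.34 each), with adjusted p = 0.183, 0.0817 and 0.0505. On day 3 limma called 0 genes, 0% of those tested, with 535 at an unadjusted p under 0.05. On day 30 it called 1 gene, Serpina3n, 0.0122%, and on day 60 it called Serpina3n, Igkv8-30 and Jchain, 0.0366%. The called genes are named after their values were seen. Both arrays of the day lay above both untreated arrays for 2 of the 4 genes on day 3, where 21.8% of all genes did, for 4 of 4 on day 30 (18.6%) and for 3 of 4 on day 60 (20.7%).

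Frzb stood at a log2 of 0.91 on day 3, 1.07 on day 30 and 1.55 on day 60 (SE 0.35 each), with adjusted p = 0.714, 0.350 and 0.180. Sfrp1 on 1438620_x_at stood at 0.97, 1.01 and 0.20 (SE 0.44 each), while 1416594_at gave 2.23, 1.95 and 2.38 (SE 0.29 each) with adjusted p = 0.0635, 0.107 and 0.0655 among the probe sets. The value of Sfrp1 on each day therefore depends on the probe set. On day 3 the 2.23 of 1416594_at lay above Dkk3, which stood at 1.81 on 1417312_at and 1.53 on 1448669_at.

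**Figure D3:**
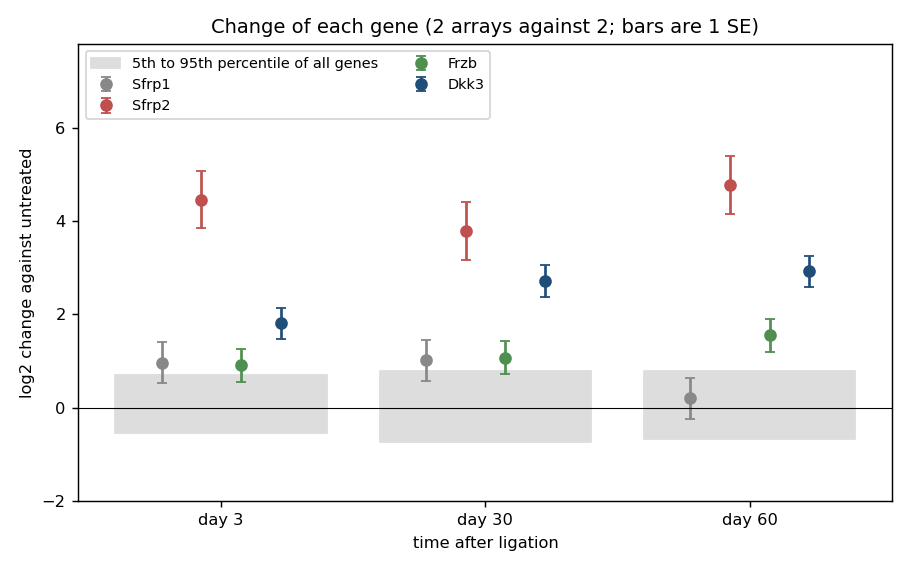
Log2 change against untreated hearts on days 3, 30 and 60 for the 4 genes (points, 2 arrays against 2, bars of 1 SE from limma), with the range between the 5th and 95th percentile of all genes tested in grey. Sfrp2 stays between 3.78 and 4.77, Dkk3 between 1.81 and 2.92 and Frzb between 0.91 and 1.55. Sfrp2, Dkk3 and Frzb lie above the grey range on each day. Sfrp1 lies above it on day 3 (0.97) and day 30 (1.01) but not on day 60 (0.20).

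Between the times after ligation the values of Sfrp2, Frzb and Dkk3 were smaller than those against untreated hearts. Day 30 against day 3 gave a log2 of 0.91 for Dkk3 (SE 0.34, interval 0.13 to 1.69, adjusted p = 0.820), -0.68 for Sfrp2 (SE 0.62), 0.16 for Frzb (SE 0.35) and 0.05 for Sfrp1 (SE 0.44). Day 60 against day 30 gave 0.99 for Sfrp2 (SE 0.62, adjusted p = 0.668), 0.47 for Frzb (SE 0.35), 0.21 for Dkk3 (SE 0.34) and -0.82 for Sfrp1 (SE 0.44), the last turning to between 0.42 and 0.78 on the other Sfrp1 sets. In limma 0 genes passed in either comparison, 0% of those tested, with 470 and 653 at an unadjusted p under 0.05.

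Within a strain 1 array stands against 1, and changes have no test. With the offset added, at least 2-fold above the strain's untreated array on day 3 were 3 of the 4 genes in MRL/MpJ (Sfrp2, Frzb and Dkk3), where 4.98% of all genes were, and 3 of 4 in C57BL/6 (Sfrp1, Sfrp2 and Dkk3), where 2.43% were. On day 30 they were 2 of 4 in MRL/MpJ (Sfrp2 and Dkk3; 3.09% of all genes) and 4 of 4 in C57BL/6 (7.91%). On day 60 they were Sfrp2, Frzb and Dkk3 in both strains, with 4.56% of all genes in MRL/MpJ and 3.64% in C57BL/6. These counts depend on the probe sets of Sfrp1 and Frzb, which were 1438620_x_at and 1416658_at. In MRL/MpJ on day 30 Frzb was 1.91-fold above untreated on 1416658_at and 2.07-fold on 1448424_at. In C57BL/6 on day 3 it stood at 1.28 times untreated on 1416658_at and 0.67 times on 1448424_at. On 1416594_at Sfrp1 was 6.54-fold above untreated on day 3, 5.02-fold on day 30 and 6.37-fold on day 60 in MRL/MpJ, and 3.38-fold, 2.99-fold and 4.23-fold in C57BL/6.

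The strain comparison asks whether MRL/MpJ hearts differ from C57BL/6 hearts with the time point held fixed. Frzb had the largest difference of the 4 genes, a log2 of 1.09 higher in MRL/MpJ (SE 0.25, interval 0.52 to 1.67, 4 arrays against 4), and did not pass (adjusted p = 0.235 in limma). It was higher in MRL/MpJ in 4 of 4 pairs of arrays on both probe sets, as were 8.53% of all genes and 9.01% of all probe sets. On 1416658_at the signal in MRL/MpJ was 2.09 times that in C57BL/6 in the untreated pair, 4.64 times on day 3, 1.58 times on day 30 and 1.94 times on day 60. In all 18 genes passed, 0.22% of those tested, none of them one of the 4 genes.

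Sfrp1 on 1438620_x_at differed by 0.54 (SE 0.31, interval -0.18 to 1.26), Dkk3 by 0.46 (SE 0.24, interval -0.09 to 1.02) and Sfrp2 by 0.11 (SE 0.44, interval -0.90 to 1.13). With either untreated array left out, the Sfrp1 value on 1438620_x_at was 0.13. The other Sfrp1 sets gave 0.76 on 1416594_at (SE 0.20), 0.21 on 1448395_at (SE 0.27) and -0.055 on 1460187_at (SE 0.23). Sfrp2 was 3.52 times as high in MRL/MpJ as in C57BL/6 on day 3, 0.369 times on day 30 and 0.992 times on day 60, so its pairs ran in different directions. Summed over the 15 fibroblast markers, MRL/MpJ had 81281 on day 3, against 44639 in C57BL/6, and 21594 in untreated hearts, against 19868. The sum was 53917 against 47050 on day 30 and 52554 against 46688 on day 60, higher in MRL/MpJ in every pair. On the log2 scale the median strain difference of these markers was 0.30, with 12 above 0 and Gsn, Thy1 and Loxl1 below, and 0.06 without either day 3 array. The highest was that of Lum, the lumican gene, at 1.08 (adjusted p = 0.110 in limma). The part of fibroblast markers in the Frzb difference was not tested.

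An interaction term asks whether the strains differed by another amount on day 3 than at the remaining times. It gave a log2 of 2.22 for Sfrp2 (SE 0.64, interval 0.71 to 3.74), 1.20 for Frzb (SE 0.41, interval 0.23 to 2.17), 0.56 for Dkk3 (SE 0.55) and -0.37 for Sfrp1 on 1438620_x_at (SE 0.74). The adjusted p in limma was 0.908 for Sfrp2 and 0.931 for Frzb, and 0 genes passed, 0% of those tested, with 417 at an unadjusted p under 0.05. The corresponding term for the ligated pairs against the untreated pair was -1.66 for Sfrp1 on 1438620_x_at (SE 0.46), 0.76 on 1416594_at (SE 0.44), 0.46 for Dkk3 (SE 0.58), 0.29 for Frzb (SE 0.62) and 0.04 for Sfrp2 (SE 1.08). There too 0 genes passed, 0%, with 167 at an unadjusted p under 0.05.

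**Figure D4:**
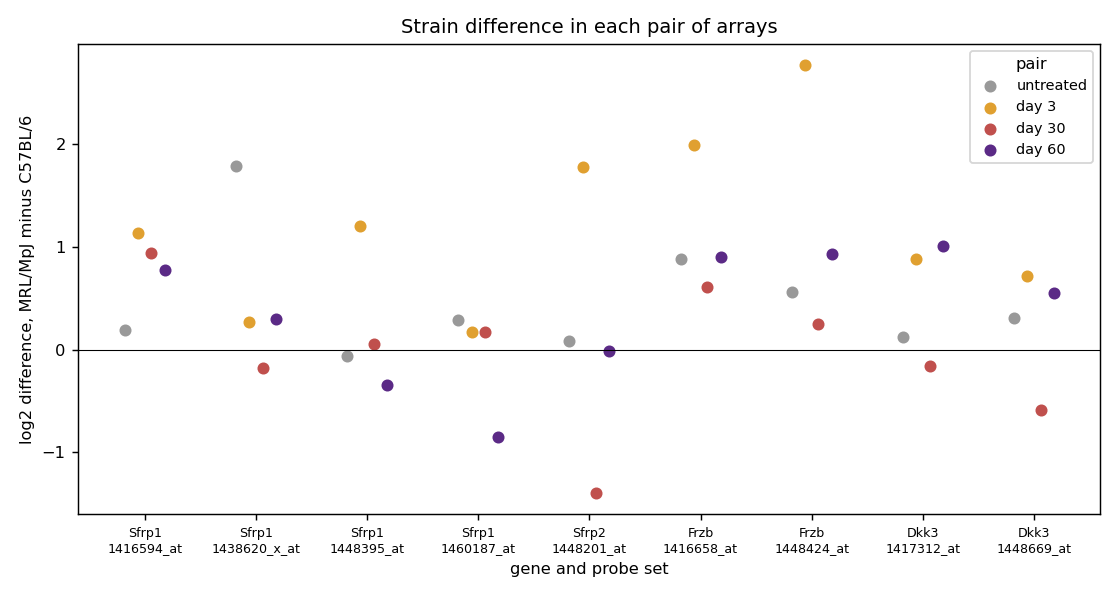
Log2 difference between MRL/MpJ and C57BL/6 (MRL/MpJ minus C57BL/6, offset added) for each of the 9 probe sets, with 1 point for each pair of arrays and colours for the time. Both Frzb sets and the Sfrp1 set 1416594_at lie above 0 in 4 of 4 pairs, and Sfrp2 runs between -1.40 on day 30 and 1.78 on day 3.

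The rest of the Wnt pathway was described from 6 lists with 108 genes. Of these 98 were on the array and 52 passed the filter. In ligated against untreated hearts 26 of the 52 lay above 0 and 26 below, 0 passed in either direction in limma, and 4 had an unadjusted p under 0.05, all higher. By comparison 10.4% of all genes had an unadjusted p under 0.05, and the median over all genes was -0.03.

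Among other secreted antagonists, 4 of 14 passed the filter, with a median log2 of 0.15. Igfbp4, an IGF-binding protein that also blocks Wnt receptors, stood at 0.999 (SE 0.18, adjusted p = 0.0847), with signals of 2491 to 3268 in ligated hearts and 1436 and 1420 in untreated hearts that did not overlap. Sfrp4, another Frizzled-related protein, stood at 0.05 (SE 0.27), with 316.1 to 947.6 in ligated hearts around the untreated 528.9 and 455.9. Sfrp5 stood at -0.29 and Notum, which removes a lipid from Wnt ligands, at 0.25. The 10 that did not pass, among them Dkk1, Dkk2, Dkk4 and Wif1, had signals between 2.1 and 92.7 on all arrays.

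Of 19 ligand genes 6 passed the filter, with a median log2 of -0.23, and the largest changes were 0.43 for Wnt6, -0.31 for Wnt2b, -0.30 for Wnt10a and -0.25 for Wnt7b. The secretion genes Wls, which carries ligands to the cell surface, and Porcn, which adds their lipid, stood at 0.48 and 0.20. The 13 receptor and co-receptor genes measured had a median of 0.05, with Fzd9 at -0.64, Fzd7 at 0.62, Fzd8 at 0.50 and Fzd4 at 0.42. The list of cytoplasmic and nuclear signalling, which also holds the membrane proteins Vangl1 and Celsr2, had a median of -0.09 over 19 genes. Ctnnbip1, an inhibitor of beta-catenin, was at -0.72 (SE 0.40), Vangl1 at 0.54 (SE 0.31), Csnk1e at -0.37 (SE 0.21) and Celsr2 at -0.32 (SE 0.32). On C57BL/6 day 30 Ctnnbip1 had 33.5, against 185.9 to 287.6 on the other ligated arrays. Vangl1 had 950.7 on that array, against 292.6 to 519.8 on the others.

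Target genes of beta-catenin had a median log2 of 0.34 over 8 genes, with 5 above 0. Ccn5, a matricellular protein gene induced by Wnt1, had the largest value, 1.93 (SE 0.36, adjusted p = 0.0847), with 370.2 to 936.3 in ligated hearts and 181.4 and 117.2 in untreated hearts. Id2 stood at 0.80, Nkd2 at 0.62 and Fosl1 at -0.55. Axin2, chosen after its value was seen because it is a widely used readout of the pathway, stood at 0.12 (SE 0.19), with 72.3 to 155.8 in ligated hearts and 84.9 and 114.2 in untreated hearts.

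The genes of procollagen processing were listed because of the reported action of Sfrp2 on Bmp1. The 3 of 5 that passed the filter lay above 0 without passing the test: Pcolce, an enhancer of procollagen C-proteinase, at 0.92 (SE 0.22), Pcolce2 at 0.85 (SE 0.22) and Bmp1 at 0.53 (SE 0.21). Bmp1 had 271.1 to 378.1 in ligated hearts and 185.3 and 274.6 in untreated hearts, which overlapped.

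**Figure D5:**
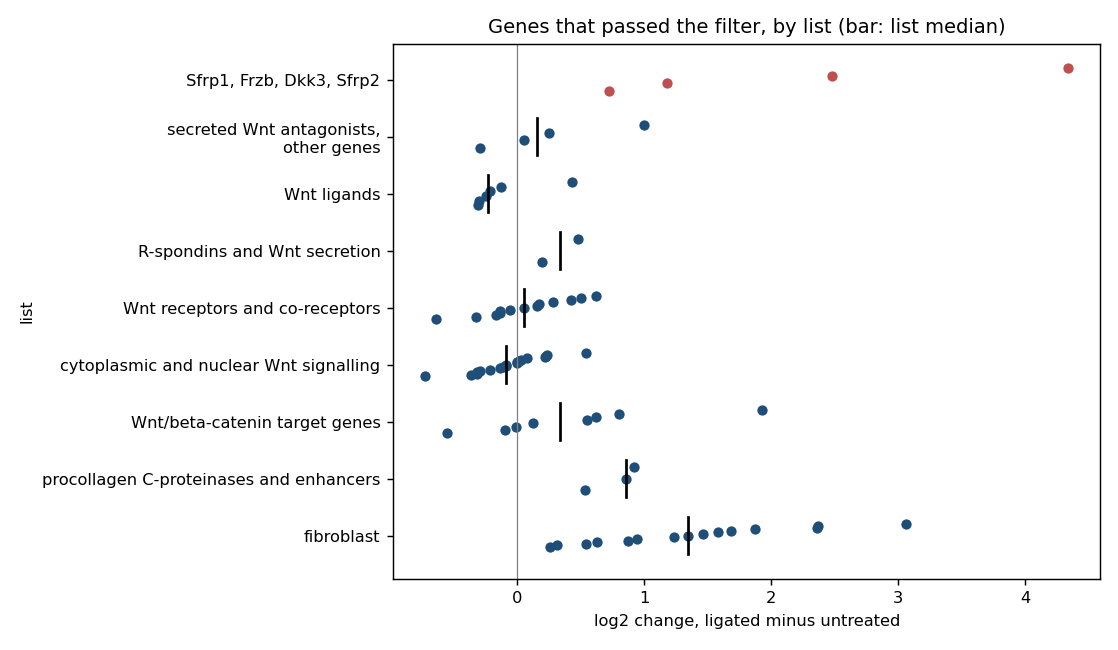
Log2 change in ligated against untreated hearts for every gene of each list that passed the filter (1 point per gene, black bars for list medians), with Sfrp1, Frzb, Dkk3 and Sfrp2 in the top row. The medians of the 6 Wnt lists lie between -0.23 and 0.34, with Igfbp4 at 0.999 and Ccn5 at 1.93 farthest to the right, and all 15 fibroblast markers lie above 0.

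Cell type markers were set beside the 4 genes. All 15 fibroblast markers lay above 0 in ligated against untreated hearts, with a median log2 of 1.35 and values between 0.26 and 3.06, and 4 of them passed (Col1a1, Col1a2, Col3a1 and Vim). Without untreated MRL/MpJ the median was 1.003. The change of Sfrp2 was above that of every fibroblast marker, and Postn, a matricellular protein of healing tissue, came nearest with 3.06. All 13 macrophage markers that passed the filter lay above 0 as well, with a median of 0.90 and 0 past the test, and the summed signal of all 16 on the array was 10195 to 14407 in ligated hearts and 5265 to 7817 in untreated hearts. Of the 13, Mpeg1, Lgals3 and Gpnmb had both untreated signals below 121 and passed the filter through the ligated arrays alone. The 3 that did not pass it, Fcgr1, Cd163 and Itgam, had signals between 15.4 and 165.2. The 12 endothelial markers had a median of -0.12, with 5 above 0 and 7 below. The 10 smooth muscle and pericyte markers that passed the filter had a median of -0.03, with 5 above 0 and 5 below. The part of any of these cell types in the change of Sfrp2, Dkk3, Frzb or Sfrp1 was not tested.

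Atrial markers were examined beside Dkk3. The 9 on the array summed to 10524 to 53089 in ligated hearts and 5213 to 7859 in untreated hearts, and most of this was Nppa, which the heart muscle list holds too. The atrial light chain gene Myl7 had 97.6 on day 3, 3899 on day 30 and 2967 on day 60 in MRL/MpJ, and 1078, 3372 and 11.9 in C57BL/6. Sln, atrial sarcolipin, had 6.1 in MRL/MpJ on day 3 and 6.7 in C57BL/6 on day 60. Their untreated signals lay between 234.6 and 532.5. Without Nppa, the other 8 atrial markers summed to 928.7 on day 3, 10934.5 on day 30 and 11555.8 on day 60 in ligated MRL/MpJ hearts, against 2078 in the untreated one. In ligated C57BL/6 hearts they summed to 3918.8, 12033 and 747.1 at the same times, against 1757.4 in the untreated one. So MRL/MpJ day 3 and C57BL/6 day 60 were below the untreated hearts. The part of atrial tissue in the change of Dkk3 was not tested. Of 7 markers of valve and tendon on the array only 3 passed the filter. Comp and Fmod, both matrix protein genes, stood at 3.09 and 2.00, and Tnmd at 0.45. Comp and Tnmd had both untreated signals below 121 and passed the filter through the ligated arrays alone. Scx, Chad, Hapln1 and Sox9 did not pass. The list summed to 800 to 3825 in ligated hearts and 358.5 to 551.5 in untreated hearts, and its highest sum, in C57BL/6 on day 60, held 2815 from Comp. Of 8 epicardial markers only Upk3b and Krt8 passed the filter, at 0.88 and 0.17, and their list summed to 561.3 to 975.4 in ligated hearts and 495.8 to 555.8 in untreated hearts. The part of valve, tendon or epicardial tissue was not tested.

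The genes most like each of the 4 over the 8 arrays were named by Pearson r of log2 signal among the 8195 genes, as a description only, since 6 ligated and 2 untreated arrays set much of it. For Sfrp2 they were Lgals3, the galectin-3 gene and one of the macrophage markers listed here, Islr, Rab3il1, Med10 and Ccdc80, with r of 0.98. For Dkk3 they were Cst3, the cystatin C gene, Ccn2, the connective tissue growth factor gene, Sntb2, S100a4 and Eef1a1, with r between 0.97 and 0.98. For Frzb they were Rtkn, Plxdc2, Tmem165, Olfml3 and Pcolce, with r between 0.96 and 0.97. For Sfrp1 on 1438620_x_at they were Hdhd3, Nr2c1, Nodal, Pitx1 and Usf1, with r between 0.93 and 0.97.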

How the data were processed

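Signal intensity (linear scale) from Affymetrix mouse arrays was deposited by the authors, who made it with MAS5 per the submitters' processing notes; its version is not given in the sources used here. Values for 22626 probe sets on 8 arrays were named from the annotation of the array platform. A single symbol was given for 20380 probe sets, several for 691 and none for 1555. For each of 12393 genes, the probe set whose log2 signals had the highest mean was used. Before log2, 28.6 was added to every value as an offset (percentile 20 of the table), and nothing was normalized further. The 8195 genes with a signal of at least 121 in at least 2 arrays were tested with limma 3.58.1 in R 4.3.3, Benjamini-Hochberg adjusted, and called where adjusted p was under 0.05.

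Since a group is 1 array, the additive model of strain and time took its error from 3 residual degrees of freedom, and interaction terms from 2. The error is therefore the departure of these arrays from the fitted model. In the additive model it mixes real differences of the strains in their time course with spread between arrays. Spread between animals cannot be told apart from it, since 1 mouse or a pool per array is not given. The same model was fitted to all 12183 probe sets with 1 symbol that passed the filter. Precision is limited by having 8 arrays. The 4 genes and the lists were chosen with earlier results of these data known. The text names, from each list described gene by gene, up to 4 genes with the largest change, and for each of the 4 genes the 5 with the highest r; other markers were named after their values were seen. The procedure was tested on simulated data. Offset, filter, normalization, variance trend, choice of probe set and each array were varied.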

Additional observations from a re-analysis of the deposited data

Results flagged for a closer look

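In 11 cases over the 9 probe sets the changes of the strains, each 1 array against 1, ran in opposite directions, and these differences were not tested. All are log2 values with the offset added, the MRL/MpJ change minus the C57BL/6 change. From day 3 to day 30, Sfrp2 moved by -2.27 in MRL/MpJ and by 0.91 in C57BL/6, a difference of -3.18. Over the same interval both Frzb sets moved down in MRL/MpJ and up in C57BL/6, with a difference of -1.39 on 1416658_at and -2.52 on 1448424_at. The same held for Dkk3 on 1448669_at, with a difference of -1.31, and for Sfrp1, with -0.45 on 1438620_x_at and -1.14 on 1448395_at. All 6 compare day 30 with day 3, so by construction each includes C57BL/6 day 30, the array least like the rest. Each includes MRL/MpJ day 30 and both day 3 arrays as well, and the part of any 1 array was not tested.

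From day 30 to day 60, both Dkk3 sets moved up in MRL/MpJ and down in C57BL/6, with a difference of 1.17 on 1417312_at and 1.14 on 1448669_at, and so did Frzb on 1448424_at, with 0.68. These include C57BL/6 day 30 too, as any comparison of day 60 with day 30 in both strains does. On day 3 against untreated, Frzb on 1448424_at moved by 1.62 in MRL/MpJ and -0.58 in C57BL/6, a difference of 2.21, while its other set moved up in both strains. On day 60 against untreated, Sfrp1 on 1438620_x_at moved by -0.55 in MRL/MpJ and 0.94 in C57BL/6, a difference of -1.49, while the other 3 Sfrp1 sets were above untreated in both strains.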

How the results depend on the processing

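Settings are the offset (halved, or at the median of all values), no filter, a filter on mean signal, quantile normalization, an intensity trend in the variance prior, the mean over probe sets of a gene, and every probe set on its own. Over these settings and each array left out in turn, of 605 values for the 4 genes 528 kept their direction and their side of the threshold, 36 reversed, 26 newly passed and 15 no longer passed. Much of this count was fixed in advance, so it does not measure how stable the calls are. In the main test only Sfrp2 and Dkk3, in ligated against untreated hearts, were called. All other values kept their side by staying uncalled. Leaving out an array of a day outside a comparison of days cannot move its log2 change. Causes were not tested. Genes called after ligation numbered 76 with the median offset, 43 with the mean filter, 104 with the trend, 1 without a filter and 1 after quantile normalization. In the last 2 settings the calls of Sfrp2 (4.34 in both; adjusted p = 0.101 and 0.0603 in limma) and of Dkk3 (2.48 and 2.45) ended. Dkk3 on 1448669_at (1.86) did not pass, while Sfrp1 passed on 1416594_at (2.19).

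With the median offset, the mean filter and the trend, genes called numbered 12, 14 and 26 on day 3, 7, 6 and 24 on day 30, and 43, 24 and 75 on day 60. Without a filter 0 were called on days 30 and 60, and on day 3 there were 4 with the mean over probe sets and 1 with every probe set. In the same order Sfrp2 passed at 3.42, 4.46 and 4.46 on day 3 and 3.70, 4.77 and 4.77 on day 60, and Dkk3 at 1.88, 2.72 and 2.72 on day 30 and 2.07, 2.92 and 2.92 on day 60. With the trend alone Dkk3 passed at 1.81 on day 3 and Sfrp2 at 3.78 on day 30. For day 60 against day 30, 1 gene was called with the median offset, 1 with the mean filter and 1 with the mean over probe sets. Between strains 30, 8, 28, 43, 10 and 32 genes were called with the median offset, no filter, the mean filter, the trend, the mean over probe sets and every probe set.

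Sfrp1 reversed with its probe set. The mean over its sets, then 1416594_at, 1448395_at and 1460187_at, gave -0.22, -0.28, -0.34 and -0.32 for day 30 against day 3, 0.25, 0.42, 0.60 and 0.78 for day 60 against day 30, and 0.44, 0.50, 1.32 and 0.30 for the day 3 interaction. Its strain difference was -0.055 on 1460187_at, and its ligation interaction 0.76 on 1416594_at and 0.37 on 1448395_at. The ligation interaction of Sfrp2 was -0.018 after quantile normalization and that of Dkk3 -0.078 on 1448669_at.

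Lowest and highest values with each array left out in turn follow for results that changed sign, call or count, and for the widest others. For ligated against untreated hearts these were 0 to 68 genes called, -0.11 to 1.56 for Sfrp1, 3.97 to 4.71 for Sfrp2, 0.98 to 1.38 for Frzb and 2.25 to 2.71 for Dkk3. For day 3 against untreated hearts these were 0.13 to 1.80 for Sfrp1, 3.35 to 5.57 for Sfrp2, 0.31 to 1.51 for Frzb and 1.52 to 2.09 for Dkk3. For day 30 against untreated hearts these were 0 to 186 genes called, 0.18 to 1.84 for Sfrp1, 2.78 to 4.79 for Sfrp2 and 2.30 to 3.13 for Dkk3. For day 60 against untreated hearts these were 0 to 30 genes called, -0.63 to 1.03 for Sfrp1, 4.69 to 4.86 for Sfrp2 and 2.56 to 3.29 for Dkk3. For day 30 against day 3 these were -0.43 to 0.53 for Sfrp1, -1.79 to 0.43 for Sfrp2 and -0.44 to 0.76 for Frzb. For day 60 against day 30 these were -0.020 to 2.00 for Sfrp2 and -0.21 to 0.62 for Dkk3. For the strain difference these were 7 to 14 genes called, 0.13 to 0.78 for Sfrp1 and -0.44 to 0.62 for Sfrp2. For the ligation interaction these were -0.79 to 0.80 for Sfrp2 and -0.13 to 0.57 for Frzb. For the day 3 interaction these were 0 to 3 genes called and -0.78 to 0.21 for Sfrp1. The 186 genes on day 30 were called without MRL/MpJ day 30, where Sfrp2 and Dkk3 also passed (adjusted p = 0.0421 in limma), and on day 60 both passed without any 1 array of day 3 or day 30. After ligation 67 genes were called without C57BL/6 day 3, where Frzb passed as well (adjusted p = 0.0474), 68 without MRL/MpJ day 30, 1 without C57BL/6 day 30, 1 without MRL/MpJ day 60, and 0 without C57BL/6 day 60 or either untreated array.

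Pairing of replicates or animals was not possible because each strain and time has 1 array and the labels carry no replicate numbers. Arrays were paired by time only, since the additive model compares the strains within each time. The interaction terms could not be fitted without an array of the pair they single out, so 6 of 8 such fits were run. Untreated signals of Sfrp2 and Dkk3 lie below 121, the median of all values. Those of the Sfrp1 set 1416594_at, 22.1 and 29.2, lie near the offset of 28.6, percentile 20 of the table. Such low signals limit the precision of the changes of Sfrp2, Dkk3 and this Sfrp1 set.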
